A study of Mus musculus with 4 samples.

Results

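The genes described here are 7 core genes of the RAS-RAF-MEK-ERK cascade, 7 of the 17630 genes with a deposited value. They were chosen by name for their place in the cascade, and each was found through its gene identifier: the RAS genes Hras and Nras, the RAF genes Araf and Braf, the MEK genes Map2k1 and Map2k2, and the ERK gene Mapk3. Their RNA levels were read in mammary basal cells and in colonies grown from such cells.

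RAS proteins are small GTPases that are loaded with GTP when a receptor such as the epidermal growth factor receptor is activated, and GTP-bound RAS recruits RAF kinases to the membrane. RAF phosphorylates MEK, MEK phosphorylates ERK, and active ERK phosphorylates kinases and transcription factors that act on growth, division and differentiation. In the mammary gland the cascade lies downstream of growth factors that drive duct elongation and branching. The activity of the cascade is set by GTP loading and phosphorylation, neither of which is measured by RNA levels.

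The study asked how sympathetic nerves act on mammary development and on the stem cells of the basal layer, and whether ERK signaling takes part. All 4 RNA-seq libraries came from wild type (WT) mice, and each group had 1 library, so no spread between replicates can be given and no test was made. The sorted control was primary basal cells, gated as Lin-negative, CD24-positive and CD29-high, of mice with no treatment, and the 6-OHDA library was basal cells of mice given 6-hydroxydopamine, a neurotoxin that destroys sympathetic nerve endings. The control colonies were basal cells grown in Matrigel with epidermal growth factor and insulin-transferrin-selenium without an agonist, and the SP colonies had salbutamol, an agonist of the β2 adrenoceptor, and phenylephrine, an agonist of the α1 adrenoceptor. The titles of the colony samples carry the numbers 0 and 200 with no unit. Their labels name basal cells and not colonies, so they are read as colonies from these paired titles, from the agonists and from a protocol that covers sorted cells or cultured colonies. The labels give no strain, age, number of mice or days in culture. The methods of the study name several strains of mice, 6-OHDA schedules for puberty and for pregnancy and a culture period for colonies in general, and do not say which mice and schedule these libraries came from.

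Levels are given in FPKM, fragments per kilobase of transcript scaled to the size of the library, which is per length, so genes can be compared within a library. The FPKM values summed to 508071 in the sorted control, 517504 in the 6-OHDA library, 577631 in control colonies and 588202 in SP colonies. Of 10 basal cell markers, 10 were at 1 FPKM or more in every library, and Krt14, a keratin of basal cells, was their most abundant gene with 3595, 2633, 3298 and 6920 FPKM in the same order. Contractile genes of this list were lower in the colonies than in the sorted libraries. Myh11, a smooth muscle myosin, was at 467 and 449 FPKM in the sorted libraries and at 11.2 and 21.5 FPKM in the colonies, while the actin gene Acta2 was still abundant in the colonies at 402 and 722 FPKM, beside 1949 and 2575 FPKM in the sorted libraries. The 12 luminal markers summed to 1497 FPKM in the sorted control, 1340 in the 6-OHDA library, 2083 in control colonies and 1962 in SP colonies, with the keratin gene Krt8 the most abundant in each.

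The 6-OHDA library stood apart from the others by its salivary gland transcripts. Of 13 genes for secreted salivary proteins, 12 were in the files, and they summed to 16292 FPKM or 3.15% of that library, with Bpifa2 at 7277 FPKM as the most abundant. In the sorted control, the control colonies and the SP colonies they summed to 1.97, 1.46 and 1.79 FPKM, and 8 of the 12 genes were at 0 in each. For the 6-OHDA library, the differences of the 7 genes and the counts pooled over lists of other pathway genes are therefore given as deposited and also after each library was rescaled to an equal sum without these genes, while the counts of single lists are given as deposited.

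Hras, a RAS gene at chr7:141189934-141194019 of GRCm38.p6 (gene ID 15461), was at 35.0 FPKM in the sorted control, 39.95 in the 6-OHDA library, 59.95 in control colonies and 78.7 in SP colonies. Nras, a RAS gene at chr3:103058285-103067914 (gene ID 18176), was at 15.4 FPKM in the sorted control, 20.2 in the 6-OHDA library, 27.2 in control colonies and 34.6 in SP colonies. Both RAS genes thus had the same order of the 4 libraries, with the lowest level in the sorted control and the highest in the SP colonies. The highest level was 2.24 times the lowest for Hras and 2.25 times the lowest for Nras. Hras was the more abundant in all 4 libraries.

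Araf, an X-linked RAF gene at chrX:20797707-20860521 (gene ID 11836), was at 19.9 FPKM in the sorted control, 19.9 in the 6-OHDA library, 35.5 in control colonies and 32.0 in SP colonies. The sorted libraries were alike and low for Araf, and both colony libraries were higher. Braf, a RAF gene at chr6:39603231-39725658 (gene ID 109880) whose product has the strongest kinase activity toward MEK in its family, was at 6.73 FPKM in the sorted control, 8.73 in the 6-OHDA library, 7.52 in control colonies and 6.21 in SP colonies. Braf was the least abundant of the 7 genes in every library, and its 4 values lay within a factor of 1.41. Its rank among all genes ran from 6559 in the 6-OHDA library to 8544 in the SP colonies, while Araf ranked between 2600 and 3884.

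Map2k1, which encodes the ERK kinase MEK1 at chr9:64185769-64253605 (gene ID 26395), was at 44.2 FPKM in the sorted control, 42.8 in the 6-OHDA library, 34.1 in control colonies and 50.5 in SP colonies. The control colonies were the low library for Map2k1, and the SP colonies the high one. Map2k2, which encodes the closely related MEK2 at chr10:81105913-81124697 (gene ID 26396), was at 30.8 FPKM in the sorted control, 29.0 in the 6-OHDA library, 34.4 in control colonies and 34.5 in SP colonies. Its levels were the most even of the 7 genes, with a factor of 1.19 between the highest and the lowest library.

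Mapk3, which encodes the kinase ERK1 at chr7:126759626-126765816 (gene ID 26417), was at 25.6 FPKM in the sorted control, 30.4 in the 6-OHDA library, 108 in control colonies and 103 in SP colonies. Both colony libraries lay far above both sorted libraries, and its factor of 4.21 between the highest and the lowest library was the largest of the 7 genes. Mapk3 ranked 3114 among all genes in the sorted control and 2690 in the 6-OHDA library, but 751 in control colonies and 810 in SP colonies.

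**Figure D1:**
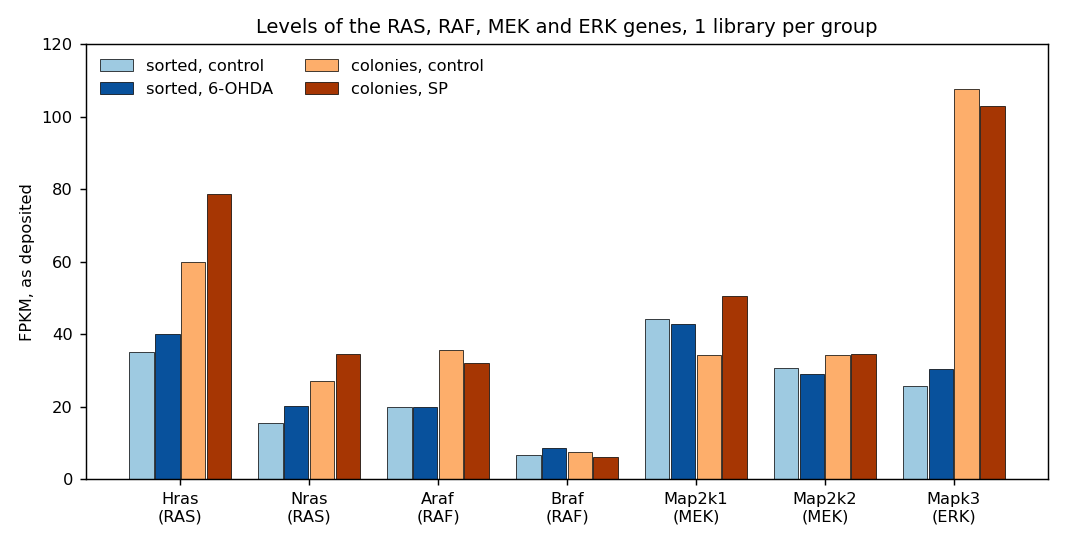
Bars give the FPKM of each gene in its single library per group, on an axis that starts at 0, with genes ordered by their step in the cascade. Mapk3 was at 25.6 and 30.4 FPKM in the sorted libraries and at 108 and 103 FPKM in the colonies, while Braf was the lowest gene in each library.

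Within a library, the order of the 7 genes differed between sorted cells and colonies. In the sorted control Map2k1 was the most abundant, followed by Hras, Map2k2, Mapk3, Araf, Nras and Braf, and Map2k1 was 6.58 times as abundant as Braf. In the 6-OHDA library Map2k1 and Hras again came before the others, and the span from Map2k1 to Braf was 4.90 times. In the control colonies Mapk3 was the most abundant, followed by Hras, Araf, Map2k2, Map2k1, Nras and Braf, and the span was 14.3 times. Araf, Map2k2 and Map2k1 were close to each other there, at 35.5, 34.4 and 34.1 FPKM. In the SP colonies Mapk3 and Hras again came before the others, Map2k1 stood behind them, and the span was 16.6 times.

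The summed FPKM of each step gives the same picture by role. The RAS genes summed to 50.5 FPKM in the sorted control, 60.2 in the 6-OHDA library, 87.1 in control colonies and 113 in SP colonies. The RAF genes summed to 26.6, 28.6, 43.1 and 38.2 FPKM in that order. The MEK genes summed to 75.01, 71.8, 68.6 and 85.0 FPKM, the narrowest span of the steps. In the sorted libraries the MEK sum was thus above the RAS sum and above Mapk3, and in the colonies it was below both.

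The 6-OHDA comparison addresses what the loss of sympathetic nerves does to basal cells in the gland. Nras rose by 0.37 and Braf by 0.33 on the log2 scale, and the other 5 genes stayed within the threshold. Changes are differences of log2(FPKM + 1) among genes with a mean of at least 1 FPKM over both libraries, which all 7 genes passed, and a gene was counted as higher or lower when its difference was over 0.3 in size. This gave 2 of 7 genes higher and 0 lower, where 15.8% of the 11749 genes compared were higher and 8.35% were lower. With so few genes the count is no more than a description of Nras and Braf. The median difference of the 7 genes was 0.18, beside 0.06 over all genes.

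Hras differed by 0.18 and Mapk3 by 0.24 between the 6-OHDA library and the sorted control. Map2k1 differed by -0.05, Map2k2 by -0.08 and Araf by -0.00. Of all genes compared, 10.3% had a higher difference than Nras and 13.04% had a higher difference than Braf. Rescaled without the salivary genes, 2 of 7 genes were again higher and 0 lower, where 2614 of the 12790 genes compared on that scale were higher and 1183 lower, beside 1857 and 981 as deposited. Nras was then higher by 0.40, Braf by 0.37 and Araf by 0.02, so that the sign of the small Araf difference turned. On that scale Hras differed by 0.21, Mapk3 by 0.26, Map2k1 by -0.03 and Map2k2 by -0.06. Braf fell short of the threshold with a difference of 0.28 under scaling by the median ratio of all genes, 0.25 under quantile normalization and 0.23 with a pseudocount of 5.

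Counts of marker genes in the same comparison stand beside the 15.8% of all genes that were higher and the 8.35% that were lower. The 9 fibroblast markers summed to 191 FPKM in the sorted control and 388 in the 6-OHDA library, 6 of 9 were higher and 0 lower, or 5 of 8 without Fap, which passed the filter through the 6-OHDA library alone, none was at 0 in these 2 libraries, and the proteoglycan gene Dcn was the most abundant at 115 and 135 FPKM. Of 6 adipocyte markers, the fatty acid binding protein gene Fabp4 held nearly all of the sum. Fabp4 was at 210 FPKM in the sorted control and 374 in the 6-OHDA library. The other 5 were under 1 FPKM in both, with Cidec at 0 in the 6-OHDA library, so this list describes Fabp4 alone. Of 10 basal markers 1 was higher and 2 were lower, and of 11 luminal markers compared 1 was higher and 4 were lower. Of 7 endothelial markers 2 were higher and 0 lower, and of 9 leukocyte markers 3 passed the filter with 0 past the threshold and Cd3e at 0 in the 6-OHDA library. Of 9 proliferation genes compared, 8 were higher and 0 lower, but 2 of these passed the filter through the 6-OHDA library alone, and of the other 7, 6 were higher. The list summed to 19.8 and 47.2 FPKM. The part of these transcripts, and of the salivary ones, in the differences of Nras and Braf was not tested. In such bulk libraries, fewer cells of a type and less RNA per cell cannot be told apart.

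The SP comparison addresses what adrenergic agonists do to basal cells in culture. Both RAS genes and Map2k1 rose: Map2k1 by 0.55, Hras by 0.39 and Nras by 0.34 on the log2 scale. Map2k1 went from 34.1 to 50.5 FPKM, or 1.48 times its level in the control colonies. This gave 3 of 7 genes higher and 0 lower, where 11.7% of the 11849 genes compared were higher and 19.8% were lower. The median of the 7 genes was 0.00, beside -0.07 over all genes.

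Of all genes compared with SP, 5.58% had a higher difference than Map2k1, 8.70% than Hras and 10.2% than Nras. The genes within the threshold were Araf with a difference of -0.15, Braf with -0.24, Mapk3 with -0.07 and Map2k2 with 0.00. The sign of the Map2k2 difference turned when each library was rescaled to an equal sum (-0.02), and that of Mapk3 turned under median ratio scaling (0.00). The rises of Map2k1, Hras and Nras were past the threshold under each pseudocount, filter and scaling tried, with lowest values of 0.50, 0.36 and 0.30.

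The makeup of the colony libraries differed too, and the counts given here stand beside 11.7% of all genes higher and 19.8% lower. The 10 basal markers summed to 6863 FPKM in control colonies and 14775 in SP colonies, with 6 of 10 higher and 1 lower, and the basal keratin gene Krt5 went from 1888 to 4579 FPKM. Of 12 luminal markers, 0 were higher and 6 lower, and none was at 0. All 10 proliferation genes were higher, with sums of 208 and 367 FPKM and Ube2c, which encodes a ubiquitin-conjugating enzyme of mitosis, the most abundant with SP at 76.2 FPKM. The adipocyte gene Fabp4 fell from 34.4 to 1.05 FPKM, with Plin1, Cidec and Retn at 0 in the SP colonies and Retn also in the control colonies. Of 6 fibroblast markers compared, 0 were higher and 5 lower, but 2 of these passed the filter through the control colonies alone, and of the other 4, 3 were lower. The list summed to 41.7 and 13.3 FPKM with Pdgfra the most abundant with SP, and Dpt and Fap were at 0 there. The part of this makeup in the differences of Map2k1, Hras and Nras was not tested.

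**Figure D2:**
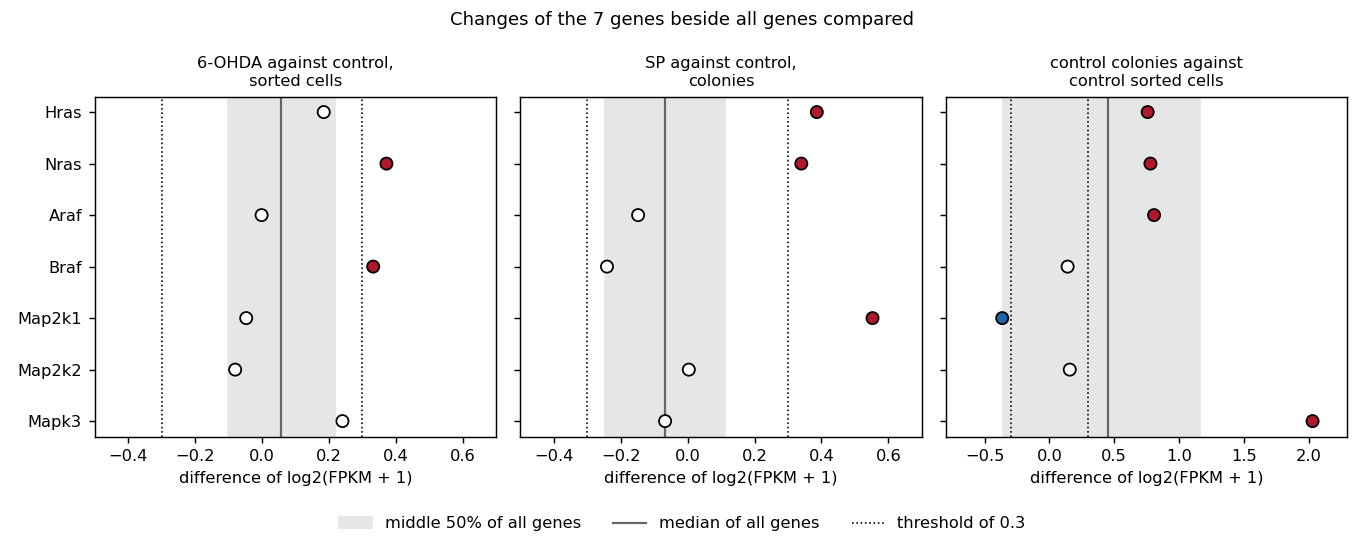
Points give the difference of log2(FPKM + 1) of each of the 7 genes, filled where it was over 0.3 in size (red higher, blue lower), beside the quartiles (gray band) and median (line) of all genes and the threshold (dots). In control colonies against sorted control cells the median of all genes was 0.45, and the signs of Braf and Map2k2 turned to negative under each rescaling.

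The control colonies and the sorted control differ in culture, medium and cell preparation at once, and these cannot be told apart. This comparison shares the sorted control library with the 6-OHDA comparison and the control colony library with the SP comparison. The median gene was higher by 0.45 in the colonies as deposited, and scaling by the median ratio moved this median by -0.45, quantile normalization by -0.33 and an equal sum by -0.15, so changes are given relative to it. Mapk3 was then higher by 1.58 and Map2k1 lower, at -0.82, and these were the largest differences among the 7 genes.

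As deposited, 4 of 7 genes were higher and 1 was lower, where 55.7% of the 12244 genes compared were higher and 26.6% were lower. The median of the 7 genes was 0.76, or 0.31 relative to all genes. Of all genes, 6.46% had a higher difference than Mapk3, which was 4.21 times its level in the sorted control. Relative to the median gene, Hras was at 0.31, Nras at 0.33 and Araf at 0.36. These 3 values lay near the threshold, median ratio scaling put Hras at 0.26 and Nras at 0.29, and 37.4% to 39.5% of all genes had a higher difference.

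Relative to the median gene, Braf was at -0.31 and Map2k2 at -0.29, although their deposited values gave differences of 0.14 and 0.16, so the direction of both depends on the scaling. Map2k1 was lower with every pseudocount, filter and scaling tried, with differences from -0.85 to -0.33. Mapk3 was higher with each of them, with differences from 1.53 to 2.07. After the median was taken off, 4 of 7 genes were higher and 2 lower, where 39.7% of all genes were higher and 39.7% lower.

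Markers of other cells moved in this comparison. The 7 endothelial markers summed to 267 FPKM in the sorted control, 260 in the 6-OHDA library, 1.89 in control colonies and 1.85 in SP colonies. In the control colonies 6 of the 7 were under 1 FPKM, so they passed the filter through the sorted control alone and their differences are not counted here. Pecam1, the gene of the CD31 antigen that the sort gate excludes, was their most abundant gene at 107 and 1.39 FPKM. The endothelial gene Tie1 was at 0 in the SP colonies. Of 9 leukocyte markers, 6 were at 0 in the control colonies, among them Ptprc and Cd3e, and the list summed to 12.9 FPKM in the sorted control and 3.37 in the control colonies with the macrophage gene Cd68 the most abundant. The fibroblast markers summed to 191 FPKM in the sorted control and 41.7 in the control colonies, where Col1a2 was the most abundant and none was at 0.

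Of 12 luminal markers, 9 were higher in the control colonies and 0 lower as deposited, where 55.7% and 26.6% of all genes were. Rescaled without the salivary genes, 6 of the 12 were higher and 2 lower, where 6428 and 4164 of 13038 genes were. Elf5, a transcription factor of luminal progenitors, passed the filter through the control colonies alone, with 0.63 FPKM in the sorted control and 22.5 in the control colonies. Of the other 11, 8 were higher as deposited, with a median of 0.42 beside 0.43 over all genes at 1 FPKM or more in both libraries. Of 10 basal markers 1 was higher and 6 were lower as deposited, and the median of the list was -1.20 relative to all genes. The 10 proliferation genes summed to 19.8 and 208 FPKM, 3 of them passed the filter through the control colonies alone, and the other 7 were all higher. The part of these transcripts in the differences of Mapk3 and Map2k1 was not tested.

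The ratio of paralogs within a library is not changed by a scaling factor for the whole library. Hras was 2.27 times as abundant as Nras in the sorted control, 1.97 times in the 6-OHDA library, 2.21 times in control colonies and 2.27 times in SP colonies. The ratio of the RAS genes was thus similar in 3 libraries and lowest in the 6-OHDA library. Araf was 2.95 times as abundant as Braf in the sorted control, 2.27 times in the 6-OHDA library, 4.73 times in control colonies and 5.15 times in SP colonies. The RAF ratio was higher in both colony libraries than in both sorted libraries, and between the controls it differed by a factor of 1.60.

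Map2k1 was 1.44 times as abundant as Map2k2 in the sorted control, 1.47 times in the 6-OHDA library, 0.992 times in control colonies and 1.47 times in SP colonies. The control colonies alone had near equal levels of the MEK genes. In percent of the MEK sum, Map2k2 made up 41.0% in the sorted control, 40.4% in the 6-OHDA library, 50.2% in control colonies and 40.6% in SP colonies. Mapk3 was 0.341 times the MEK sum in the sorted control and 0.424 times in the 6-OHDA library, but 1.57 times in control colonies and 1.21 times in SP colonies.

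**Figure D3:**
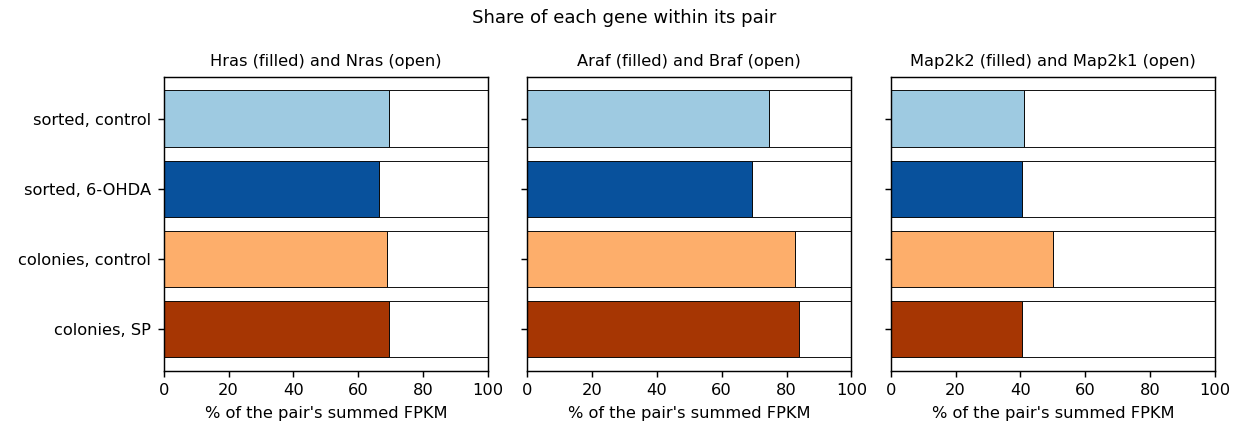
Bars give the percent of the summed FPKM of a pair that each gene held in each library, with the gene named before the other filled and the other open. The Map2k2 share was 50.2% in the control colonies and between 40.4% and 41.0% in the other libraries, and the Araf share was 82.5% and 83.7% in the colonies.

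Further genes were described from 8 lists with 90 genes, of which 7 lists hold regulators and outputs of the cascade and 1 holds genes of the other MAPK cascades. The counts over these lists pool both kinds. In the 6-OHDA comparison 6 of the 80 genes compared were higher and 1 was lower, or 7.50% and 1.25% beside the 15.8% and 8.35% of all genes, with a median difference of 0.09. Rescaled without the salivary genes, 10 of the 83 compared were higher and 2 lower, where 2614 and 1183 of 12790 genes were. The gene that was lower as deposited passed the filter through the sorted control alone, and of the other 79, 6 were higher and 0 lower. With SP 5 of 77 were higher and 9 lower, or 6.49% and 11.7% beside 11.7% and 19.8%, with a median of -0.05. Between the controls, 29 of 80 were higher and 32 lower as deposited, where 55.7% and 26.6% of all genes were. Of these 80, 4 passed the filter through 1 library alone. Of the other 76, 28 were higher and 29 lower, where 5926 and 2628 of the 10699 genes at 1 FPKM or more in both libraries were. The median of the 76, 0.04, lay below the 0.43 of those 10699 genes. Rescaled without the salivary genes, 21 of the 81 compared were higher and 39 lower, where 6428 and 4164 of 13038 genes were. The shares of all genes as deposited are those for the single lists below too.

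Of the RAS relatives Rras, Rras2 and Mras, Rras2 was at 28.2 FPKM in the sorted control, 28.7 in the 6-OHDA library, 25.5 in control colonies and 54.4 in SP colonies. The SP colonies were the high library, a rise of 1.06 over the control colonies. Rras was at 45.2, 43.6, 61.1 and 73.7 FPKM in the same order of libraries, and Mras was at 3.05, 3.19, 5.07 and 4.77 FPKM. With SP, Rras differed by 0.27 and Mras by -0.07.

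Exchange factors load RAS with GTP. Of 8 such genes only 5, 2 and 4 passed the filter in the 6-OHDA, SP and control comparisons. Between the controls 4 of 4 were lower, where 26.6% of all genes were, but Rasgrp2 and Rasgrp3 passed the filter through the sorted control alone, so nothing is read from this count. Rasgrp3 was at 4.26 FPKM in the sorted control and 0.54 in the control colonies, and Sos1, a main exchange factor downstream of growth factor receptors, was at 11.6 and 8.40 FPKM. With 6-OHDA 1 of 5 was lower, Rasgrf1, from 1.27 to 0.79 FPKM, but it passed the filter through the sorted control alone, and of the other 4, 0 were lower. With SP 0 of 2 passed the threshold.

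GTPase-activating proteins switch RAS off. Of 9 compared, 2 were higher with 6-OHDA, Rasa3 by 0.32 and Rasa2 by 0.31, and 0 were lower. With SP 1 was higher and 2 were lower, with Rasa4 higher from 6.19 to 8.42 FPKM and Rasa1 lower from 44.6 to 34.2 FPKM. Between the controls, Nf1, the gene of neurofibromin, was at 13.3 and 7.96 FPKM, a difference of -1.13 relative to all genes, while Rasal1 was at 2.04 and 8.71 FPKM, a difference of 1.22.

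Adaptors connect receptors to the exchange factors. Of these, 0 of 9 passed the threshold with 6-OHDA. With SP 0 of 10 were higher and 2 were lower, Gab1 from 39.9 to 24.1 FPKM and Gab2 from 2.46 to 1.32 FPKM. Between the controls 3 of 10 were higher and 3 lower as deposited. Of those higher, Frs3 at 0.58 and 1.76 FPKM passed the filter through the control colonies alone. Of the other 9, 2 were higher and 3 lower, with a median of -0.21 beside 0.43 over all genes at 1 FPKM or more in both libraries. Crkl was at 32.4 and 15.0 FPKM.

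RAS proteins reach the membrane after farnesylation and further steps of processing. Of 8 such genes, 1 was higher with 6-OHDA, Pde6d, a chaperone of farnesylated RAS, from 3.47 to 5.36 FPKM. With SP 1 was higher, the farnesyltransferase subunit gene Fntb, from 13.3 to 19.6 FPKM. Between the controls 4 of 8 were higher and 0 lower as deposited, where 55.7% and 26.6% of all genes were, so nothing is read from this count. Relative to all genes the median of the list was -0.21, and its lowest member was at -0.56, past the threshold on the lower side. Pde6d was at 3.47 and 14.9 FPKM.

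Scaffolds bring RAF, MEK and ERK together, and the list also holds genes of other proteins that bind these kinases. Of 13 compared, 1 was higher with 6-OHDA, Lamtor2 from 31.6 to 42.0 FPKM, and 1 was lower with SP, Arrb2 from 8.71 to 6.29 FPKM. Between the controls 6 were higher and 5 lower as deposited, with a median of -0.33 relative to all genes. Ksr1, a scaffold that binds RAF and MEK, was at 22.3 FPKM in the sorted control, 20.2 in the 6-OHDA library, 2.78 in control colonies and 2.65 in SP colonies. Arrb1, which encodes a β-arrestin that couples G protein-coupled receptors to ERK, was at 23.1, 23.2, 3.11 and 3.38 FPKM in that order. Lamtor1, the membrane anchor of a late endosomal MEK1 scaffold, was at 17.3, 18.6, 75.7 and 75.9 FPKM. Ksr1 and Arrb1 were thus low in both colony libraries and Lamtor1 was high there.

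Sprouty and Spred proteins inhibit the cascade. With 6-OHDA 0 of 6 passed the threshold. With SP 0 of 5 were higher and 2 were lower, Spred1 and Spred3. Spred1 was at 48.0 FPKM in the sorted control, 50.1 in the 6-OHDA library, 58.7 in control colonies and 33.7 in SP colonies. Between the controls 1 of 6 was higher and 4 were lower as deposited, where 26.6% of all genes were lower, but Spry4 passed the filter through the sorted control alone, and of the other 5, 3 were lower. The median of these 5 was -0.74 as deposited, beside 0.43 over all genes at 1 FPKM or more in both libraries. Spry4 was at 8.35 and 0.60 FPKM, Spry1 at 19.5 and 8.78 FPKM, and Spred2 at 35.0 and 16.8 FPKM in the sorted control and the control colonies.

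Among 10 kinases and transcription factors that ERK phosphorylates, 0 passed the threshold with 6-OHDA. With SP 2 were higher, the kinase gene Rps6ka4 from 15.8 to 25.8 FPKM and the ternary complex factor gene Elk3 from 18.7 to 26.1 FPKM, and 1 was lower, Rps6ka5 from 2.61 to 1.90 FPKM. Between the controls 4 were higher and 4 lower as deposited, with a median of -0.32 relative to all genes, and Mknk2 was at 68.7 and 32.1 FPKM. Of 20 genes of the other MAPK cascades, 2 were higher with 6-OHDA, Map3k1 by 0.42 and Map3k2 by 0.31, while 1 was higher with SP, Mapk6 by 0.67, and 1 was lower, Map2k5, at -0.32. Between the controls 8 were higher and 9 lower as deposited, with a median of -0.60 relative to all genes, and Map2k3, a kinase of the p38 cascade, was at 286 and 41.5 FPKM.

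**Figure D4:**
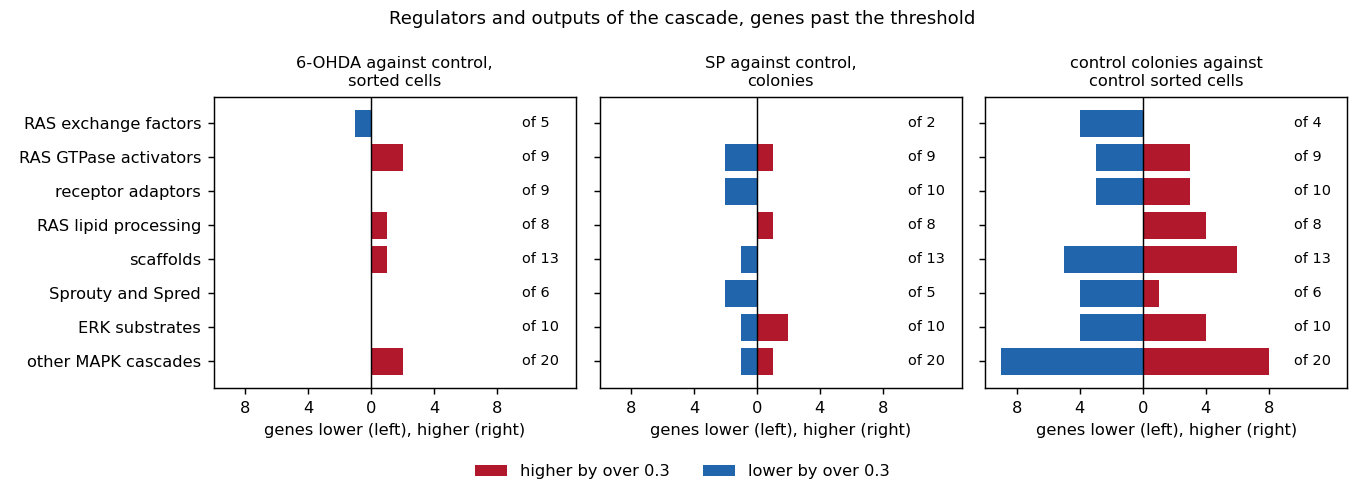
Bars give the number of genes of each list that were higher (right) or lower (left) by over 0.3 on the log2 scale as deposited, with the number compared at the side. Of the Sprouty and Spred genes 4 of 6 were lower in control colonies than in sorted control cells, or 3 of 5 without Spry4, which passed the filter through the sorted control alone, where 26.6% of all genes were lower and their median was 0.45.

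Each gene's profile over the 4 libraries was compared with those of 9101 genes with a mean of at least 5 FPKM, by the largest gap of log2(FPKM + 1) after each gene's own mean was taken off. For Mapk3 the nearest were Tmem254a, which has close copies in the genome, with a gap of 0.01, the membrane glycoprotein gene Cd200 with 0.03 and the origin recognition complex gene Orc3 with 0.04. Cd200 was at 38.5 FPKM in the sorted control, 44.1 in the 6-OHDA library, 159.9 in control colonies and 149.6 in SP colonies. These genes were chosen for a like profile, so the order of their libraries follows from the choice.

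For Map2k1 the nearest genes included Fam110c with a gap of 0.05 and Gstm2 with 0.08. Fam110c was at 7.99, 8.14, 6.11 and 9.26 FPKM in the same order of libraries. For Nras they were the RAS-related GTPase gene Rala with 0.02, Hmgb2 with 0.03 and Washc4 with 0.04, and for Hras they were Med11 and Rnpepl1 with 0.05 each and Slc39a13 with 0.06. Hras and Nras were 0.14 apart, and Hras took rank 89 among the neighbours of Nras. For Araf the nearest were Aftph, Setdb1 and Ncstn, for Braf Kctd17, Tbc1d12 and Inpp4a, and for Map2k2 Dnm2, Arrdc4 and Septin5, all with gaps between 0.01 and 0.04.

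The levels of paralogs could be mixed where their transcripts share sequence. Of the stretches of 50 bases in the main GENCODE transcript of each gene, 0 of 2779 in Hras and 0 of 2309 in Araf also occurred in a transcript of another gene. Map2k1 and Map2k2 shared 7 such stretches with each other, 0.293% and 0.297% of their own. In Nras 0.860% were shared with other genes, in Mapk3 0.0571%, and in Braf 97 of 9679 were, most of them with Ndufb2. Ndufb2 overlaps 146 exonic bases of Braf on the opposite strand, and Syn1 overlaps 9 exonic bases of Araf in the same way. Whether the libraries kept strand could not be found in the labels, so reads in these overlaps cannot be told apart.

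Promoters were listed for 6 of the 7 genes in the RefSeq table of GRCm38.p6, with 250 bases before and 50 after the start listed there. Motifs were searched on both strands as fixed letters. The GC box, GGGCGG, was in 35.7% of 32851 promoters. The CCAAT box, with these letters, was in 37.4% of them. The cAMP response element, TGACGTCA, was in 1.79%. The AP-1 site, TGAGTCA, was in 5.20%, the TATA box, TATAAA, in 13.6% and the ETS site, CCGGAAG, in 8.86%, and none of these last 3 was in any of the 6 promoters. The promoters of Hras, Nras and Map2k1 are shown because these genes rose together with SP, and that of Map2k2 because it did not pass the threshold beside Map2k1. Matches on either strand are in capitals. A match is a description of letters and not a binding site.

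The Hras promoter at chr7:141193955-141194254 on the minus strand was 69.0% GC and held 3 GC boxes and 1 CCAAT box. The Nras promoter at chr3:103058035-103058334 on the plus strand was 52.3% GC and held 3 GC boxes, of which 2 overlap by 1 base. The Map2k1 promoter at chr9:64253556-64253855 on the minus strand was 69.0% GC and held 4 GC boxes and 2 CCAAT boxes. The Map2k2 promoter at chr10:81105665-81105964 on the plus strand was 60.7% GC and held 2 GC boxes and 0 CCAAT boxes. All 4 thus held a GC box, and the median over all promoters was 52.7% GC.
Hras: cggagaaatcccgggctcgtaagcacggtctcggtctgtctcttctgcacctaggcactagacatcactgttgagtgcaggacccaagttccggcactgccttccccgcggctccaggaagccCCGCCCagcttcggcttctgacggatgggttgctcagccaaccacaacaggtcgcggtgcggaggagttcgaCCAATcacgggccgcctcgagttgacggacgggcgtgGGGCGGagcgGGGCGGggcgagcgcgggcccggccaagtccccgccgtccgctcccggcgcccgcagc
Nras: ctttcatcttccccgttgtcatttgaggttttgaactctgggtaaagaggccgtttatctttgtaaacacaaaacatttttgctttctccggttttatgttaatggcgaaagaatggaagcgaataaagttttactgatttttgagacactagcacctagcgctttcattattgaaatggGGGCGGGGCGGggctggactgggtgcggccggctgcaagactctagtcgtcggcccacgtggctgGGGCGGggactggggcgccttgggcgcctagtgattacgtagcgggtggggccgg
Map2k1: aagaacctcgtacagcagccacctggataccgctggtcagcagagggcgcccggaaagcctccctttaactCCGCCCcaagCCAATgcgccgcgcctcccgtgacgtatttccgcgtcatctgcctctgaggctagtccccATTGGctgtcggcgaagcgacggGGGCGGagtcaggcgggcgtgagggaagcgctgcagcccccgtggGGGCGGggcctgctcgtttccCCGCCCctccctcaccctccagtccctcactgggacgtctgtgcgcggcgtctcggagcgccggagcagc
Map2k2: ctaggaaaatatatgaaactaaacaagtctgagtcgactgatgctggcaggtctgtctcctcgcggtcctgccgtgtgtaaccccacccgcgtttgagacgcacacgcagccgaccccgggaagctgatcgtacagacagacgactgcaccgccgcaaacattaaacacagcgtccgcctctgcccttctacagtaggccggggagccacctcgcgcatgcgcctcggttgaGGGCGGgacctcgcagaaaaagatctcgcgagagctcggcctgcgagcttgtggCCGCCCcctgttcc

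The RAF promoters differed in the motifs they held. That of Araf at chrX:20848293-20848592 on the plus strand, a start inside the span of the gene given above, held 3 CCAAT boxes and 0 GC boxes. That of Braf at chr6:39725414-39725713 on the minus strand held 1 GC box and 2 cAMP response elements, and it was the only promoter of the 6 with that element. It is shown for these matches, and with SP Braf had a difference of -0.24, within the threshold.
Braf: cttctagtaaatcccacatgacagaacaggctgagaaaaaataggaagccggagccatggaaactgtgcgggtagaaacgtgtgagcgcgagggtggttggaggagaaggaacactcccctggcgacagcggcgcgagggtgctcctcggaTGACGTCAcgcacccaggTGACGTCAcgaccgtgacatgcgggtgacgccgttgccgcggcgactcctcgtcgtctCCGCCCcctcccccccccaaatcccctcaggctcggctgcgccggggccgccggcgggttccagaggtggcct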

How the data were processed

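The authors deposited FPKM values with 2 decimals for 17630 genes in each of 4 RNA-seq libraries, made from total RNA. The submitters' processing notes name Bowtie2, RSEM 1.3.1 and the genome build mm10 (GRCm38). Gene identifiers were matched to the RefSeq table of GRCm38.p6, and 17512 matched. The genes and lists were chosen with earlier results of these data known. With 1 library per group, differences of log2(FPKM + 1) were taken among genes with a mean of at least 1 FPKM over the 2 libraries compared, and counted when over 0.3 in size. A gene near 0 in 1 library passes this filter only through the other, and its direction is then fixed by the filter. Counts without such genes were added after the data were seen. The pseudocount understates the change of low genes. FPKM divides by the sum of a library, so very abundant transcripts lower all other values there.

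Beside the 7 genes, those named are at most the 3 members of each list with the largest change past the threshold in each comparison, the most abundant gene of each marker list, and at most the 3 nearest profiles of each gene. Marker genes at 0 were added after their values were seen. Of a list of 6 related core genes, 3 are described and the others are not reported here. The main transcripts and overlaps are from GENCODE vM21.

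The alternatives were pseudocounts of 0.1 and 5, no filter, a mean FPKM of at least 5, rescaling to an equal sum with and without salivary genes, which raises all values so that more genes pass the filter, median ratio scaling, quantile normalization and a threshold of 1. A rough depth was read off the spacing of small FPKM values of single-transcript genes. With fragments taken as 250 bases long, 1 FPKM on 1 kilobase stood for 16.2 to 17.9 fragments, with fit scores between 0.347 and 0.418 where 1 is perfect. By it each of the 7 genes had 673 to 3621 fragments per library, and the counting error of a log2 difference was between 0.04 and 0.08. This covers counting error only. The gene counting was tested on simulated data. Python 3.11.15, numpy 2.4.6, pandas 2.3.3 and matplotlib 3.10.9 were used.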

Additional observations from a re-analysis of the deposited data

How the results depend on the processing

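No difference of the 7 genes that was past the threshold as deposited changed its direction under any alternative tried. Braf and Map2k2 between the controls were within the threshold and positive as deposited, and were negative with each rescaling. With 6-OHDA, 2 genes were higher, and 1 was with a pseudocount of 5, with median ratio scaling or with quantile normalization, in each case without Braf (0.23, 0.28 and 0.25). Of all genes, 1358 were higher and 1336 lower there with median ratio scaling, and 1244 and 1384 with quantile normalization. With a threshold of 1, 0 genes were higher with 6-OHDA, 0 with SP and 1, Mapk3, between the controls, where 0 were lower. Between the controls, 4 genes were higher and 1 lower, and median ratio scaling gave 2 higher and 2 lower, with Hras at 0.26, Nras at 0.29 and Map2k2 at -0.33, where 4691 of all genes were higher and 4784 lower. Quantile normalization gave 2 lower there, with Braf at -0.38, beside 5262 of all genes higher and 4424 lower. A pseudocount of 5 gave log2 ratios of Araf to Braf of 1.08 in the sorted control, 0.86 in the 6-OHDA library, 1.70 in control colonies and 1.72 in SP colonies, beside 1.56, 1.19, 2.24 and 2.36 without one. A number added to both genes brings their ratio nearer to 1 by arithmetic, the more so where a gene is low, as Braf is. Over all genes, 1857 were higher and 981 lower with 6-OHDA, beside 804 and 539 with a pseudocount of 5, 1066 and 639 with the FPKM filter raised to 5, and 123 and 106 with a threshold of 1. With SP 1385 were higher and 2351 lower, beside 1276 lower with a pseudocount of 5, and 237 and 158 with a threshold of 1. Between the controls 6817 were higher and 3252 lower, beside 3761 and 1619 with a threshold of 1. Of the genes past the threshold, 65.4% were higher with 6-OHDA as deposited, 50.4% with median ratio scaling and 47.3% with quantile normalization. With SP these shares were 37.1%, 49.8% and 47.2%, and between the controls 67.7%, 49.5% and 54.3%. With the threshold kept at 0.3, over the other alternatives, 161 differences of single genes kept their side of the threshold, 5 fell short of it and 2 came past it. The alternatives that change only the filter leave the differences of these genes as they are, so that part of the count was fixed. For SP and between the controls, rescaling without salivary genes nearly repeats the equal sum. No paired analysis was possible because each group has 1 library. With no replicates, the differences between animals, cultures and library preparations are not known.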
